A study of Mus musculus with 6 samples.

Results

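The genes described here encode 9 surface proteins by which blood stem cells and multipotent progenitors of the mouse are sorted: Kit, Cd34, Ly6a, Slamf1, Cd48, Flt3, Procr, Esam and Tek. They were chosen by name for that use, with earlier results of these data known, and are 9 of the 20097 genes listed in the deposited files; all 9 passed the filter on low values, as did 15410 of all genes. RNA was sequenced from bone marrow cells positive for c-Kit, the receptor that Kit encodes, with 3 libraries carrying the label WT and 3 the label Runx1 KO. Runx1 encodes a transcription factor of the blood lineage, and the series concerns RUNX1 and GATA2 in blood development. The labels give no age, sex or strain, no time or mode of deletion, and nothing on whether libraries come from separate animals, so that the p values measure the spread between these samples, which may be technical.

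Stem and multipotent cells are commonly sorted from marrow as cells that lack mature lineage markers and carry KIT together with SCA-1, the product of Ly6a. Within that gate, the SLAM receptors CD150 (Slamf1) and CD48 separate cells further: long-term repopulating cells are known as positive for CD150 and negative for CD48, while CD48 and FLT3 mark multipotent progenitors that have left the stem cell state, those with FLT3 being primed for the lymphoid lineages. CD34 is low on adult mouse stem cells and rises on progenitors. EPCR (Procr), ESAM and TIE2 (Tek) are enriched on stem cells and are also proteins of the endothelium.

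The value used below is the normalised read count, which is the reads of a gene divided by 1 size factor per library; the libraries held between 23297526 and 26793380 reads, and the floor of 3 reads was worth at most 3.14 normalised reads. Such a floor covers counting error only. The first principal component separated the labels, with scores from -65.0 to -39.8 under the label WT and from 22.8 to 64.5 under the label Runx1 KO. Replicate 1 labelled Runx1 KO, at 22.8, stood apart from replicates 2 and 3, at 64.5 and 60.8. Runx1 itself was not lower where it was labelled knocked out. Its normalised read counts were 3031, 2799 and 3497 under the label WT and 6648, 6720 and 5830 in those labelled Runx1 KO, a level per gene that cannot show whether an exon was lost. This goes against a loss of the transcript, so groups are called by their labels, and every direction here runs from the label WT to the label Runx1 KO.

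All 9 receptor genes had a higher mean under the label Runx1 KO, and 7 of them rose past an adjusted p of 0.05 while 0 fell. Across all tested genes that threshold called 21.9%, 10.6% upwards and 11.3% downwards. The rises were led by Slamf1 and Tek, followed by Esam, Ly6a, Procr, Kit and Cd34; Cd48 and Flt3 did not pass. The median log2 change of the 9 was 1.02, beside 0.00 over all tested genes. In 8 of the 9, all but Flt3, every library labelled Runx1 KO lay above every library labelled WT; groups failed to overlap in 43.3% of all tested genes, with the label Runx1 KO above in 21.4%. Of these, 5 (Slamf1, Tek, Esam, Ly6a and Procr) had a log2 change of at least 1 and passed, as did 7.79% of all tested genes. In edgeR's quasi-likelihood test, which called 21.2% of all genes, the same 7 passed. The summed share of reads of the 9 genes was 0.0790% to 0.0926% under the label WT and 0.122% to 0.135% under the label Runx1 KO. Kit and Cd34, the genes with the highest counts, held most of these reads.

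**Figure D1:**
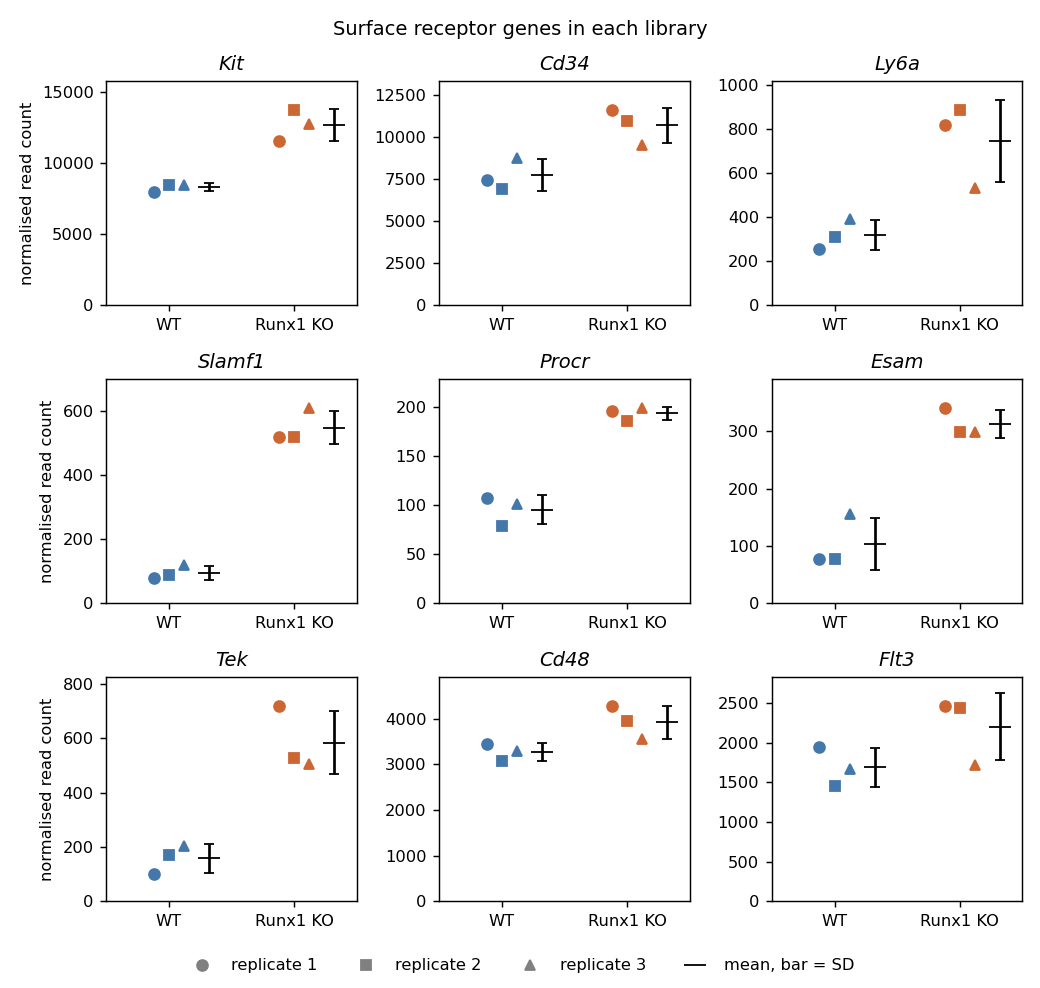
Normalised read count of each surface receptor gene (vertical axes, each from 0) in each library, with the label WT in blue and Runx1 KO in orange. Marker shapes give the replicate number and the black bars the mean and SD; the groups are apart in every panel but that of Flt3, where replicate 3 labelled Runx1 KO, at 1711, lies among the libraries labelled WT.

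The window before the start of transcription is shown for the 2 genes with the largest rise, Slamf1 and Tek, and for the 2 that did not pass, Cd48 and Flt3, because letters bound by RUNX and GATA factors bear on the title of the series. Each is the 250 bases before the RefSeq start (GRCm38.p6), 5′ to 3′ on the strand of the gene, with RUNX and GATA matches in capitals; 7 of the 9 genes matched an entry of the table, and Ly6a and Esam did not.
Slamf1 (chr1:171766882-171767131, plus strand): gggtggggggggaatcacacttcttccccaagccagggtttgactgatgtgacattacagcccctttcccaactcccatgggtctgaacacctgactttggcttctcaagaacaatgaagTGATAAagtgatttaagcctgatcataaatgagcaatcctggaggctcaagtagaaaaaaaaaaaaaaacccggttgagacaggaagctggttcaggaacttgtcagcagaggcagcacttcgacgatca
Tek (chr4:94739039-94739288, plus strand): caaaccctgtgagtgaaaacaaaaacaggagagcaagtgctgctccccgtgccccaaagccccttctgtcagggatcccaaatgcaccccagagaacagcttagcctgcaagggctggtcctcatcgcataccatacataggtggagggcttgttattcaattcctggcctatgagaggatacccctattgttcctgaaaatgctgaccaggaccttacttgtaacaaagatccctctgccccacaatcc
Cd48 (chr1:171681742-171681991, plus strand): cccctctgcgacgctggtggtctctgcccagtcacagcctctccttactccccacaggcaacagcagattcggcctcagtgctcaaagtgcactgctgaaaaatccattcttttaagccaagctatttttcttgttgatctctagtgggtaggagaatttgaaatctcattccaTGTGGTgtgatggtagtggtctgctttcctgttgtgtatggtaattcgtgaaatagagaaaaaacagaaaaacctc
Flt3 (chr5:147400490-147400739, minus strand): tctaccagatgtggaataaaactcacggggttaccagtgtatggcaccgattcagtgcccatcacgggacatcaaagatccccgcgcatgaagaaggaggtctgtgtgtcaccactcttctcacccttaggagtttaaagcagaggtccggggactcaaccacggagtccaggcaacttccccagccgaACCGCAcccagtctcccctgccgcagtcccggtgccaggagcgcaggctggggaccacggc
The letters searched on both strands were TGTGGT or TGCGGT for RUNX, AGATAA or TGATAA for GATA, and AGGAAG or CGGAAG for ETS factors, which are common in blood cell promoters. RUNX letters stood in the windows of Cd48 (TGTGGT, 76 to 71 bases before the start) and Flt3 (TGCGGT on the opposite strand, 61 to 56 bases before it). They were not found in those of Kit, Cd34, Slamf1, Procr and Tek. GATA letters stood in the window of Slamf1 alone among the 7 genes (TGATAA, 130 to 125 bases before the start). Of 32544 windows of this length, 18.5% hold a RUNX word, 16.5% a GATA word and 39.3% an ETS word. ETS words, left in lower case above, stood in the windows of Kit, Procr, Slamf1 and Cd34. A match of letters is a description of this window and not a bound site. The window of Kit, at 70.8% G and C, was the richest of the 7 in these bases, and that of Cd48, at 46.0%, the poorest, beside a median of 52.4% over all windows.

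Kit and Ly6a are the genes of the gate that holds stem and progenitor cells, and Cd34 is read beside them as a gene whose protein rises on progenitors. Kit (ENSMUSG00000005672; chr5:75574916-75656722, plus strand, protein coding) encodes the receptor tyrosine kinase for stem cell factor, and its protein was the basis of the sort. It had 7979, 8455 and 8471 normalised reads under the label WT and 11507, 13684 and 12756 under the label Runx1 KO. The lowest library labelled Runx1 KO was thus above the highest labelled WT, and the means of 8301 ± 280 and 12649 ± 1093 (SD, n = 3) stood at a ratio of 1.52 (log2 change 0.60, SE 0.07, adjusted p 0.00346). Kit RNA thus differed between the groups although both were sorted on the KIT protein.

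Cd34 (ENSMUSG00000016494; chr1:194938819-194961279, plus strand, protein coding) encodes a sialomucin of progenitors and endothelium. Its counts were 7432, 6940 and 8779 under the label WT and 11582, 10963 and 9529 under the label Runx1 KO, so that the groups stood apart by less than they spread within themselves. The means were 7717 ± 952 and 10691 ± 1053 (SD, n = 3; ratio 1.39), with a log2 change of 0.47 (SE 0.11) and an adjusted p of 0.0239. This call was lost without WT replicate 1, WT replicate 2 or Runx1 KO replicate 2 (adjusted p 0.0621, 0.0673 and 0.0894) and when no mean trend was fitted (0.0568). Exons of Cd34 overlap those of the antisense gene Gm16897, which had 18.7 ± 3.79 and 52.7 ± 16.2 normalised reads (SD, n = 3); whether counting used the strand is not given in the sources used here.

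Ly6a (ENSMUSG00000075602; chr15:74994877-74998031, minus strand, protein coding) encodes SCA-1, a small protein held in the membrane by a lipid anchor. It had 255, 311 and 394 normalised reads under the label WT against 821, 886 and 533 under the label Runx1 KO. Replicate 3 labelled Runx1 KO was well below the other 2 of its group and still above every library labelled WT. The means were 320 ± 70.0 and 747 ± 188 (SD, n = 3; ratio 2.33), with a log2 change of 1.21 (SE 0.23) and an adjusted p of 0.0131, which became 0.0546 without Runx1 KO replicate 2. Ly6a has close relatives beside it on the chromosome, the nearest of those listed being Ly6i at 11.4 kb, and how reads were split between such copies is not given in the sources used here, so its level is uncertain to that extent.

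Other genes of the Ly6 family did not share this rise. Of 10 fixed for comparison, 7 were listed and 6 tested: 0 rose and 4 fell, with a median log2 change of -1.02. Ly6d, a marker of B-lymphoid and dendritic precursors, changed by -4.99 (SE 0.76), Ly6g, a marker of neutrophils, by -3.13 (SE 0.59), Ly6c2 by -1.16 (SE 0.15) and Ly6e by -0.39 (SE 0.09); without Runx1 KO replicate 2 the number that fell was 2. Ly6i and Ly6c1 did not pass (log2 changes 0.09 and -0.89, adjusted p 0.867 and 0.217), and Ly6k was listed but too low to test. Ly6a is known to be induced by interferon, and of 12 interferon-inducible genes 9 rose and 0 fell, with a median log2 change of 0.82. Ifi44 changed by 2.20 (SE 0.20), Ifit1 by 1.93 (SE 0.19), Isg15 by 1.31 (SE 0.14) and Usp18 by 1.10 (SE 0.15). The summed level of the 12 ranged from 6295 to 8175 normalised reads under the label WT and from 10409 to 13030 under the label Runx1 KO, and its part in the rise of Ly6a was not tested.

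Slamf1 and Cd48 are neighbours on chromosome 1, 61.9 kb apart within the cluster of SLAM genes, and encode immunoglobulin-like receptors of blood cells. Slamf1 (ENSMUSG00000015316; chr1:171767127-171801184, plus strand, protein coding) had 79.1, 87.8 and 119 normalised reads under the label WT and 518, 517 and 608 in those labelled Runx1 KO. No other receptor gene of the 9 changed as much: the ratio of the means, 95.3 ± 20.9 and 548 ± 52.0 (SD, n = 3), was 5.75 and the log2 change 2.53 (SE 0.17, adjusted p 7.76e-04). The gap between the groups was many times the spread within either. In size, this change was at the 97.7th percentile of the absolute log2 changes of all tested genes.

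Cd48 (ENSMUSG00000015355; chr1:171682009-171705258, plus strand, protein coding) encodes a lipid-anchored ligand of the receptors CD244 and CD2. It had 3451, 3064 and 3287 normalised reads under the label WT and 4272, 3940 and 3557 under the label Runx1 KO. The groups did not overlap, but the gap between them was small: the means of 3267 ± 194 and 3923 ± 358 (SD, n = 3) gave a log2 change of 0.26 (SE 0.08) and an adjusted p of 0.0631. With library totals as the scaling and in DESeq2 the adjusted p was 0.0254 and 0.0324, so this gene sat near the threshold. The change of Slamf1 exceeded that of Cd48 by 2.27 on the log2 scale (SE 0.21, 95% interval 1.76 to 2.78, adjusted p 0.00281 in a fit of every gene relative to Cd48).

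Per exon length, the ratio of Slamf1 to Cd48 in the same library was 0.00443, 0.00553 and 0.00699 under the label WT and 0.0234, 0.0254 and 0.0330 under the label Runx1 KO. Its mean was thus 4.82 times as high under the label Runx1 KO, with no overlap. Even there Cd48 RNA remained far above Slamf1 RNA in every library. Of the other 7 SLAM genes of the comparison list, 1 rose and 3 fell. Slamf8 changed by 0.78 (SE 0.16), Slamf6 by -1.96 (SE 0.53), Cd244a by -1.83 (SE 0.23) and Slamf9 by -1.34 (SE 0.35), while Ly9, Cd84 and Slamf7 did not pass (0.08, 0.23 and -0.73). Slamf6 rested in part on WT replicate 1, which had 879 normalised reads beside 258 and 377 in the other libraries of its label. Only 1 SLAM gene of the list fell past the threshold with no mean trend or without WT replicate 1, WT replicate 3, Runx1 KO replicate 2 or Runx1 KO replicate 3, and without WT replicate 3 or Runx1 KO replicate 2 the number that rose was 0, and without WT replicate 1 it was 2.

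Flt3 (ENSMUSG00000042817; chr5:147330741-147400489, minus strand, protein coding) encodes a receptor tyrosine kinase of the same class as KIT. It had 1944, 1458 and 1661 normalised reads under the label WT and 2457, 2435 and 1711 in those labelled Runx1 KO. The groups overlapped, since replicate 3 labelled Runx1 KO was below WT replicate 1. The log2 change of 0.37 (SE 0.17) did not pass, at an adjusted p of 0.147; without Runx1 KO replicate 3 it was 0.55, with an adjusted p of 0.0453. A difference between the changes of Flt3 and Cd48 was not detectable (0.11, 95% interval -0.23 to 0.45, adjusted p 0.569).

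Procr, Esam and Tek encode proteins that blood stem cells share with endothelium. Procr (ENSMUSG00000027611; chr2:155751117-155755471, plus strand, protein coding) encodes the protein C receptor EPCR. Its counts were 107, 78.7 and 101 under the label WT and 196, 186 and 199 under the label Runx1 KO. The 3 libraries labelled Runx1 KO agreed closely, with a coefficient of variation of 3.37%, and the means of 95.4 ± 14.8 and 194 ± 6.53 (SD, n = 3) stood at a ratio of 2.03 (log2 change 1.02, SE 0.16, adjusted p 0.00667).

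Esam (ENSMUSG00000001946; chr9:37528078-37538319, plus strand, protein coding) encodes an adhesion molecule of endothelial junctions. It had 78.2, 76.7 and 155 normalised reads under the label WT and 340, 299 and 298 in those labelled Runx1 KO. WT replicate 3 was about as far above the other libraries of its label as they were above 0, and still below all libraries labelled Runx1 KO. The means were 103 ± 45.0 and 313 ± 23.8 (SD, n = 3; ratio 3.02), with a log2 change of 1.66 (SE 0.28) and an adjusted p of 0.00838; without WT replicate 3 the change was 2.00.

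Tek (ENSMUSG00000006386; chr4:94739289-94874976, plus strand, protein coding) encodes TIE2, the receptor tyrosine kinase for angiopoietins. It had 99.9, 171 and 203 normalised reads under the label WT and 718, 527 and 506 under the label Runx1 KO. Replicate 1 was the lowest library of one label and the highest of the other. The means of 158 ± 52.9 and 584 ± 116 (SD, n = 3) stood at a ratio of 3.70, with a log2 change of 1.92 (SE 0.27) and an adjusted p of 0.00520.

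Markers of endothelium were read beside these 3 genes. Of 12 fixed for that purpose, 10 were tested, of which 4 rose and 0 fell, and the summed level of the 12 ranged from 5194 to 6477 normalised reads under the label WT and from 5818 to 7191 under the label Runx1 KO. Pecam1 held the largest part of this sum, with means of 3185 ± 488 and 3072 ± 613 (SD, n = 3), so the sum says little of the lower genes. The median log2 change was 0.21, with 5 tested genes positive and 5 negative. Robo4, Kdr, Emcn and Vwf rose, by 1.64 (SE 0.18), 1.63 (SE 0.28), 1.39 (SE 0.23) and 0.47 (SE 0.12). Cdh5, the cadherin of endothelial junctions, had 65.3, 63.6 and 43.2 normalised reads under the label WT and 38.7, 22.8 and 34.8 under the label Runx1 KO. Plvap, Cdh5, Stab2, Flt1, Tie1 and Pecam1 did not pass (0.87, -0.83, -1.29, -0.54, -0.21 and -0.06). DESeq2 called 5 of the endothelial genes higher, Plvap among them (adjusted p 0.0138), and 1, Stab2, lower (adjusted p 0.0316). Cldn5 and Ptprb had at most 10.9 and 13.9 normalised reads in any library, near the floor. The part of endothelial cells in the rises of Procr, Esam and Tek was not tested beyond these values.

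**Figure D2:**
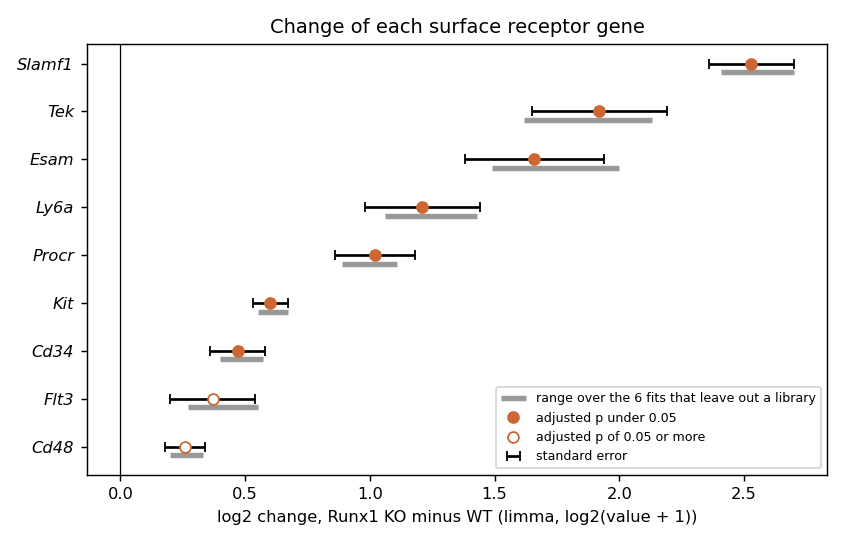
Log2 change of each surface receptor gene (horizontal axis, label Runx1 KO minus label WT) with its standard error, and the range of that change when 1 library at a time was left out (grey). Slamf1, at 2.53, and Tek, at 1.92, lie at the top, and Cd48, at 0.26, and Flt3, at 0.37, at the bottom with open circles.

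The receptor genes fell into a wide order of levels. In RPKM (reads scaled to annotated exon length and to the reads of the library), Cd48 had the highest level under the label WT, 106 ± 6.56 (SD, n = 3), ahead of Cd34 at 41.0 ± 6.24 and Kit at 36.0 ± 2.12, whose ranges overlapped. Flt3 at 10.6 ± 1.43 and Ly6a at 10.3 ± 2.57 came next and were not apart. Procr (1.82 ± 0.289), Esam (1.41 ± 0.658) and Tek (1.30 ± 0.468) overlapped, and Slamf1 was the lowest at 0.601 ± 0.151, below every library of the other 8 genes. Under the label Runx1 KO, Cd48 (135 ± 12.1), Cd34 (60.0 ± 5.74) and Kit (58.0 ± 4.68) kept the upper places, with Cd34 and Kit again overlapping. Ly6a, at 25.3 ± 6.22, was then above Flt3, at 14.6 ± 2.74, in all libraries. Tek (5.07 ± 1.02), Esam (4.46 ± 0.352), Procr (3.90 ± 0.164) and Slamf1 (3.64 ± 0.369) lay between 3.40 and 6.25 in all libraries. Slamf1 overlapped with Procr and was below every library of Esam and Tek. These levels use the union of all annotated exons, which can be longer than a single transcript.

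**Figure D3:**
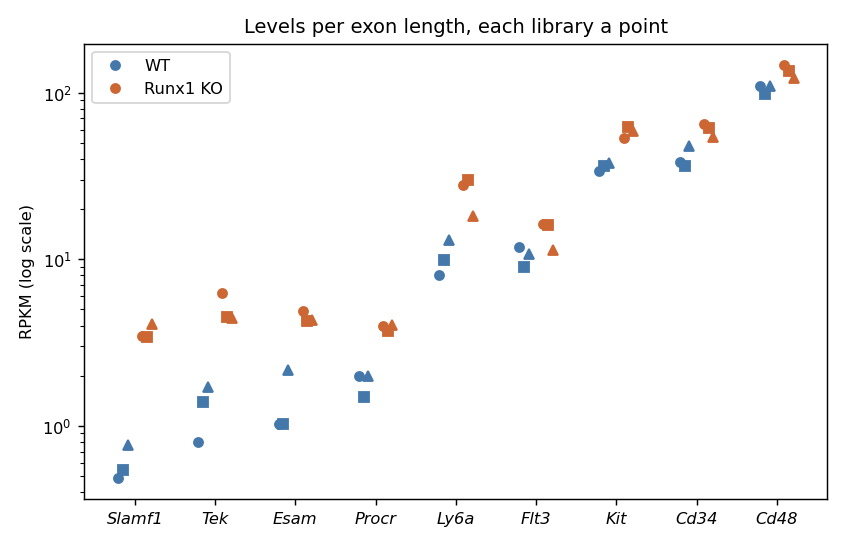
Level of each surface receptor gene in RPKM (log axis), ordered by the mean under the label WT, with each library as a point (circle, square and triangle for replicates 1, 2 and 3). Slamf1, lowest among the blue points at 0.601, overlaps Procr in the orange points at 3.64 and lies below Esam and Tek, while Cd48 stays highest in both groups.

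Since the cells were selected for KIT, each gene was also set against Kit in the same library. In this fit 71.5% of all genes differed from Kit and 2.23% were higher. Slamf1 rose more than Kit, by 1.92 on the log2 scale (SE 0.17, adjusted p 0.00321), as did Tek by 1.32 (SE 0.30, adjusted p 0.0103) and Esam by 1.06 (SE 0.29, adjusted p 0.0193). The difference for Esam was lost without WT replicate 1, WT replicate 2 or Runx1 KO replicate 1 (adjusted p 0.0572, 0.0520 and 0.0555). Ly6a (0.60), Procr (0.42), Cd34 (-0.13), Flt3 (-0.23) and Cd48 (-0.34) did not differ from Kit past the threshold, at adjusted p values from 0.0617 to 0.465. Of these, Cd48 relative to Kit reached -0.47 without Runx1 KO replicate 1 (adjusted p 0.0150), Procr 0.54 without WT replicate 1 (0.0422) and Ly6a 0.84 without Runx1 KO replicate 3 (0.0203). Against Cd48, where 22.4% of all genes differed and 3.39% were higher, Slamf1, Tek, Esam, Ly6a and Procr rose more, and Cd34 and Flt3 did not pass (0.21 and 0.11). Beside Slamf1, these differences were 1.66 for Tek (SE 0.29), 1.40 for Esam (SE 0.28), 0.95 for Ly6a (SE 0.23) and 0.76 for Procr (SE 0.14), with adjusted p values from 0.0126 to 0.0319. The 15 differences were computed after the values had been seen. Cd48 had the smallest change of the 9 receptor genes, so each difference from it was positive through the choice of reference. Of the differences against Cd48 that passed, 3 lost their call in some alternatives. That of Ly6a reached an adjusted p of 0.108 without Runx1 KO replicate 2 and was also lost without WT replicate 1, WT replicate 2 or Runx1 KO replicate 1 and with no filter. That of Esam was lost without WT replicate 2, Runx1 KO replicate 2 or Runx1 KO replicate 3 (0.0580, 0.0525 and 0.0505) and that of Procr without Runx1 KO replicate 2 (0.0530).

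**Figure D4:**
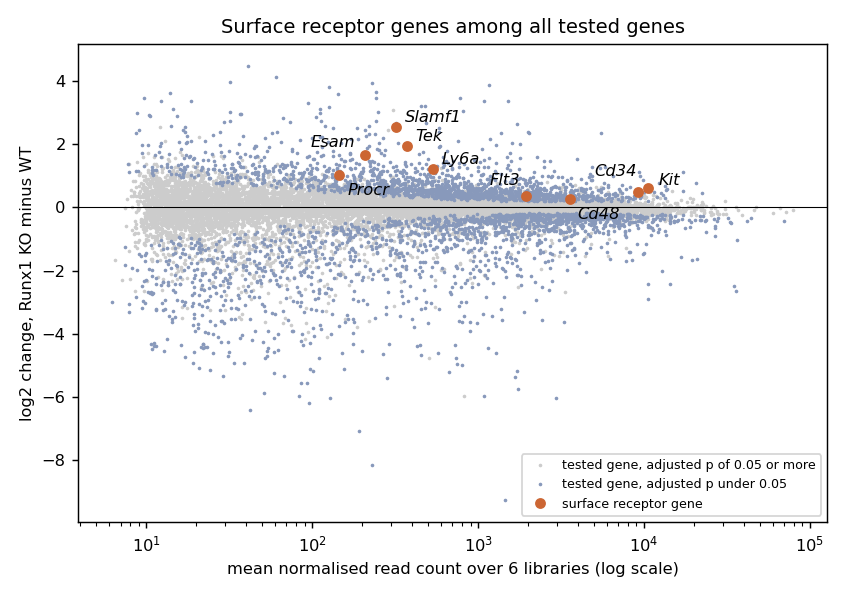
Log2 change (vertical axis, label Runx1 KO minus label WT) against mean normalised read count (log axis) for all 15410 tested genes, with the 9 surface receptor genes in orange. The 5 genes with the largest rises, Slamf1, Tek, Esam, Ly6a and Procr, have lower mean counts than Flt3, Cd48, Cd34 and Kit.

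Ligands and binding partners of the receptors did not move as 1 group. Of 10 listed, 2 rose and 2 fell, with a median log2 change of -0.09. F2r, the thrombin receptor that signals with EPCR, had 899, 1151 and 1317 normalised reads under the label WT and 3706, 3630 and 2813 under the label Runx1 KO (log2 change 1.60, SE 0.16, adjusted p 0.00217). Flt3l, the ligand of FLT3, had 94.0, 101 and 101 against 134, 142 and 139 normalised reads (log2 change 0.49, SE 0.13, adjusted p 0.0387). The partners of CD48 were lower: Cd244a changed by -1.83 (SE 0.23, adjusted p 0.00358) and Cd2 by -3.06 (SE 0.85, adjusted p 0.0436), with 712 normalised reads of Cd2 in WT replicate 1 beside 153 and 260. Kitl, Angpt1, Angpt2, Tie1 and Thbd were among those that did not pass, with log2 changes of -0.28, 0.04, 0.69, -0.21 and -0.54. Angpt1, a ligand of TIE2, was abundant in both groups, at 2011, 1914 and 2598 normalised reads under the label WT and 2326, 2509 and 1868 under the label Runx1 KO. Kitl, the gene of stem cell factor, had at most 68.6 normalised reads. The number that rose was 1 in each fit without WT replicate 2 or 3 or without any 1 of the libraries labelled Runx1 KO, and 3 with library totals as the scaling. The number that fell was 1 in edgeR, with no mean trend and without WT replicate 1, WT replicate 3, Runx1 KO replicate 2 or Runx1 KO replicate 3, and 3 in DESeq2 and without WT replicate 2.

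Close relatives of the receptors gave a mixed picture. Of 5 tested receptor tyrosine kinases related to Kit, Flt3 and Tek, Kdr rose (above) and Pdgfrb fell by 0.68 on the log2 scale (SE 0.17), while Csf1r, Flt1 and Flt4 did not pass (-0.34, -0.54 and 0.42). The fall of Pdgfrb was not called when no mean trend was fitted, or when any 1 library labelled WT or Runx1 KO replicate 3 was left out. Podxl, a sialomucin related to Cd34, rose from 106, 59.5 and 104 normalised reads to 565, 509 and 580, a log2 change of 2.65 (SE 0.23, adjusted p 0.00130). Among the relatives of Esam, Jam3 changed by 1.77 (SE 0.28) and Cxadr by -3.28 (SE 0.25), whereas F11r and Jam2 did not pass (0.50 and 0.80). Podxl2 and Igsf5 were too low to test.

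Adaptors, kinases and inhibitors downstream of KIT and FLT3 changed little in size. Of 30 genes, 6 rose and 3 fell, with a median log2 change of 0.10 and none beyond 1 in either direction; with library totals as the scaling 10 rose, without Runx1 KO replicate 1 the number that fell was 5, and with no mean trend, or without WT replicate 2, WT replicate 3 or Runx1 KO replicate 2, 4 rose. Gab1, an adaptor of receptor kinases, changed by 0.94 (SE 0.12), Plcg1, a phospholipase, by 0.47 (SE 0.08), and Stat5b and Stat5a, transcription factors activated by both receptors, by 0.43 (SE 0.06) and 0.40 (SE 0.07). The Src-family kinase gene Lyn changed by -0.67 (SE 0.13), Ptpn6, a phosphatase that restrains KIT, by -0.55 (SE 0.09) and Plcg2 by -0.48 (SE 0.10).

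Other surface genes used to sort stem and progenitor fractions were divided. Of 20, 6 rose and 5 fell, with a median log2 change of -0.17. Eng rose by 0.85 (SE 0.07), Itga2b, which marks megakaryocyte-biased cells, by 0.76 (SE 0.20), Itga6 by 0.72 (SE 0.08), Cd93 by 0.68 (SE 0.13), Cd27 by 0.50 (SE 0.10) and Crlf2 by 0.46 (SE 0.13). The genes that fell were Ly6d, Il7r by 2.15 (SE 0.58), Itgam by 1.95 (SE 0.31), Cd38 by 1.66 (SE 0.37) and Cd9 by 1.26 (SE 0.19) on the log2 scale. In DESeq2 8 fell. Without Runx1 KO replicate 2 there were 2 that rose and 3 that fell.

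Genes with high RNA in repopulating stem cells, none of them a receptor of the 9, were also counted. Of 14 tested, 7 rose, 1 fell and 6 did not pass, with a median log2 change of 0.64. Hoxb5 rose from 6.92, 4.04 and 13.4 to 51.3, 50.5 and 97.5 normalised reads (log2 change 2.95, SE 0.45). Its counts under the label WT were near the floor, so the size of its change is uncertain. Mycn rose by 1.31 (SE 0.23), Fgd5 by 1.16 (SE 0.23) and Hlf by 1.04 (SE 0.19); Meis1, Gata2 and Mllt3 were the others. Mecom, Hoxa9, Prdm16, Vldlr and Ctnnal1 were among those that did not pass. Ndn fell from 19.7 ± 4.29 to 3.33 ± 2.48 normalised reads (SD, n = 3), the latter near the floor, so the size of this fall is also uncertain. Without Runx1 KO replicate 2, 4 of these genes rose; the fall of Ndn was not called without that library or without WT replicate 2 or 3.

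**Figure D5:**
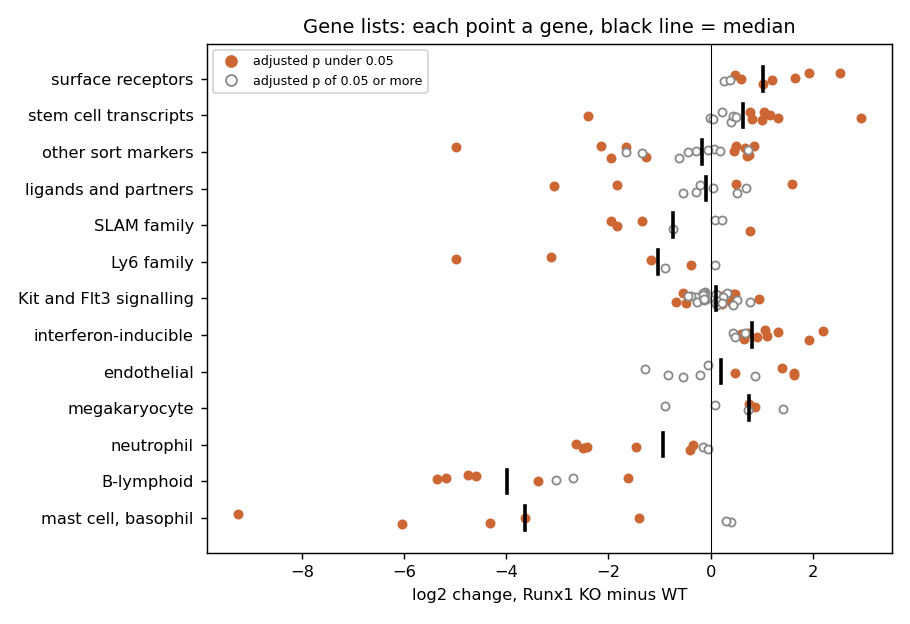
Log2 change of every tested gene in the comparison lists (horizontal axis, label Runx1 KO minus label WT), with filled points for an adjusted p under 0.05 and a black line at the median. The surface receptors, with a median of 1.02, lie wholly to the right of 0, as do the interferon-inducible genes, while the neutrophil and B-lymphoid lists lie to the left.

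Markers of maturing cells in the sorted fraction moved with the labels for some cell types only. The summed levels of the erythroid, monocyte and megakaryocyte genes below overlapped between the labels. In bulk samples, fewer cells of a type and less RNA per cell cannot be told apart, and the part of these shifts in the rises of the receptor genes was not tested. The 8 neutrophil genes summed to between 270238 and 323446 normalised reads under the label WT and between 148491 and 191991 under the label Runx1 KO, with 6 lower and 0 higher, or 3 and 4 lower without Runx1 KO replicate 2 and 3. Those that fell most were Ngp, Ltf and Camp, proteins of late granules (log2 changes -2.64, -2.49 and -2.43). Of the early granule genes Elane and Prtn3 fell (-0.35 and -0.41) and Mpo and Ctsg did not pass (-0.14 and -0.05). Replicate 1 labelled Runx1 KO held more RNA of the late granule genes than the others of its label, with 21163 normalised reads of Ngp beside 6999 and 5984. The 8 B-lymphoid genes summed to between 6166 and 27674 under the label WT, the highest being WT replicate 1, and between 1022 and 2840 under the label Runx1 KO, with 6 lower and 0 higher; without Runx1 KO replicate 2 only 1 was lower past the threshold, with 2 without Runx1 KO replicate 3 and 3 without WT replicate 3.

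Mast cells and basophils matter here because mast cells keep KIT. Of 7 tested genes 5 fell and 0 rose, the sum ranging from 12566 to 17081 and from 9655 to 12059. Prss34, Fcer1a, Gzmb and Mcpt8 changed by -9.26, -6.04, -4.31 and -3.64, while Cpa3 and Hdc, which mast cell precursors express, did not pass (0.40 and 0.31). Under the label Runx1 KO, Prss34 and Fcer1a had at most 5.23 and 4.97 normalised reads, near the floor, so the sizes of their changes are uncertain. Gzmb there had 74.3, 12.9 and 2.98. The number of genes that rose was 1 with library totals and without WT replicate 1 or Runx1 KO replicate 3. Among 6 megakaryocyte genes tested 2 rose and 0 fell, Gp9 by 0.87 and Itga2b by 0.76; DESeq2 called 4 higher and 1 lower, and 1 rose in each fit without WT replicate 1 or 2 or without Runx1 KO replicate 1 or 2. Among 8 erythroid genes 0 rose and 4 fell, Alas2, Hbb-bt, Slc4a1 and Hba-a1, with changes from -3.01 to -2.18, while Klf1 and Epor did not pass (0.74 and 0.68); DESeq2, and the fit without Runx1 KO replicate 1, called 2 erythroid genes higher. Among 8 monocyte genes 1 rose (F13a1, 0.75) and 2 fell (Cx3cr1, -1.61, and Adgre1, -0.59); 5 fell without Runx1 KO replicate 1, and 1 without WT replicate 2, WT replicate 3, Runx1 KO replicate 2 or Runx1 KO replicate 3. Among 8 dendritic cell genes 0 rose and 1, Ly6d, fell, or 3 without Runx1 KO replicate 1. In DESeq2, with library totals and without Runx1 KO replicate 3, 1 rose. Their sum ranged from 3339 to 5575 under the label WT and from 2266 to 3207 under the label Runx1 KO. Ly6d held 2832, 690 and 1118 of it against 122, 25.8 and 19.9. Siglech and Ccr9 did not pass in limma (log2 changes -3.13 and -2.59, adjusted p 0.0609 and 0.0696), and 2 of the 8 changes were positive.

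For each receptor gene the gene outside the 9 with the most similar pattern was looked up among 11191 genes with a mean of at least 100 normalised reads, by Pearson's r of the log2 values over the 6 libraries. Because the libraries form 1 cluster per label, such an r mostly reflects the split by label and ignores the size of the change. It is given as a description. The nearest gene was Usp54 for Kit, Slc35f5 for Cd34, Med12l for Ly6a, Ccdc85b for Slamf1, Dhdh for Cd48, Prag1 for Flt3, Podxl for Procr, Mcat for Esam and Pigt for Tek, with r from 0.9904 for Flt3 to 0.9988 for Slamf1. The sizes of change could be unlike. Pigt and Mcat changed by 0.17 and 0.20 on the log2 scale and did not pass (adjusted p 0.0628 and 0.0909). Dhdh and Prag1 did not pass either, and Podxl changed by 2.65 beside 1.02 for Procr. A value above 0.99 was reached by 62 genes for Slamf1 and by 1 gene for Flt3.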

How the data were processed

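Poly-A RNA of 6 libraries, made with a strand-specific kit per the labels' protocols, was analysed. The submitters' processing notes name HISAT2, HTSeq 0.9.1 and the build mm10 (GRCm38); the annotation, options and normalization are not given in the sources used here. The deposited values are a signal: gene counts divided by 1 size factor per library, as every value was a whole multiple of the smallest positive one within 0.001, and the lowest total of a listed gene was 10 such reads.

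Symbols came from a table supplied with the reference (20077 of 20097 identifiers) and positions and exon lengths from GENCODE M21 (GRCm38). Genes that passed filterByExpr (minimum count 10, minimum total 15) were tested with limma 3.58.1 on log2(value + 1), with the label as the only term and a mean trend, two-sided; p values were adjusted over all tested genes by Benjamini-Hochberg, with a threshold of 0.05. A log2 change on this scale understates that of low genes. Differences relative to Kit or Cd48 used the same fit without the trend. An exact permutation test of 3 libraries against 3 cannot go below 0.1 and was not used. The fit was tested on simulated data. Alternatives were other pseudocounts, filters and scalings, edgeR 4.0.16 and DESeq2 1.42.0 on the whole reads, the replicate number as a block and each library left out. The 9 genes and the comparison lists were chosen with earlier results of these data known. All 9 genes are named; of each list, up to 4 genes with the largest change past the threshold are given, and the genes of lists of ligands, partners and relatives, except that some genes are not reported here; any other gene named was added after its values were seen.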

Additional observations from a re-analysis of the deposited data

How the results depend on the processing

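Over the 12 alternatives that kept all libraries, from 2544 to 3911 genes passed, against 3370, and from 6 to 8 of the 9 receptor genes, against 7, all of them higher. Without a mean trend 2544 genes and 6 receptor genes passed. Kit, Tek, Procr, Slamf1, Ly6a and Esam passed in all 12 and Flt3 in 0; Cd34 missed once and Cd48 passed in 4. When 1 library at a time was left out, from 1349 to 3551 genes passed, fewest without Runx1 KO replicate 2, and 2140 without WT replicate 2 and 1743 without Runx1 KO replicate 3; from 5 to 8 receptor genes passed, and Kit, Tek, Procr, Slamf1 and Esam did so in all 6. No log2 change of a receptor gene changed sign in any of these fits. Leaving out 1 library of 3 also lowers the number in its group.

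The labels share replicate numbers, but the numbers were not taken to pair the libraries: after centring each group, libraries with the same number correlated at 0.29, 0.13 and -0.01, and library 3 of either label correlated best with another number. A block for the replicate number let 3843 genes and 8 receptor genes pass in limma (24.9% of all tested), Cd48 among them (adjusted p 0.0401), and 3685 and 8 in edgeR. Under this block, the differences of Cd48 and Procr from Kit passed (adjusted p 0.0396 and 0.0206) and that of Ly6a from Cd48 did not (0.0523); among the lists, Itga2b and Flt3l lost their call (0.0527 and 0.0713), and it moved the number that rose among the other sort markers to 5 and that fell to 9, the number that fell among the kinases related to Kit to 2, and the number that rose among mast cell and erythroid genes from 0 to 1, and 11 interferon-inducible genes rose. Counts of genes that fell rose in some other lists as well, by fewer than 3 genes. Scaling by library totals moved all genes up by 0.08 on the log2 scale. At these depths the counts of Procr, Slamf1 and Esam in libraries labelled WT, near 100, limit the precision of their changes.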

Other observations

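Within a group the receptor genes did not rank the libraries alike. Replicate 3 labelled Runx1 KO had the lowest counts of its label for Cd34, Ly6a, Cd48, Flt3, Tek and Esam and the highest for Slamf1 and Procr. For Tek, Esam and Procr the margin was under 1 SD of the group. Among the libraries labelled WT, replicate 3 was the highest for Slamf1, Esam, Tek, Ly6a, Cd34 and Kit, whereas replicate 1 was the highest for Cd48, Flt3 and Procr. Here the margin was under 1 SD for Kit, Tek, Cd48 and Procr. Per exon length, Tek and Esam stood in a ratio of 0.976 ± 0.327 under the label WT and 1.13 ± 0.136 under the label Runx1 KO (SD, n = 3), with overlapping ranges, although both genes rose.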
